A study of Mus musculus with 8 samples.

Results

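The DEAD and DEAH box RNA helicases were taken from the table of gene expression values as every gene whose symbol begins with Ddx or Dhx followed by a digit, leaving out Ddx4 and Ddx6. The rule found 51 genes of 25574, comprising 35 Ddx and 16 Dhx genes on 16 chromosomes. Of these, 49 had a mean above 0.1 FPKM (fragments counted on a gene, scaled to its length in kilobases and to the total mapped in the library) in at least 1 dataset and were tested, and Ddx43 and Dhx58 were listed at 0 in every library.

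RNA was sequenced from CD1 mouse oocytes at nuclear envelope breakdown (NEBD), the first visible step of meiotic resumption, after separation of ribosomes on sucrose gradients. The non-polysomal dataset (NP, fractions 2 to 5) holds free ribonucleoprotein, ribosomal subunits and single ribosomes, and the polysomal dataset (P, fractions 6 to 10) holds the sizes at which mRNA with several ribosomes sediments. The study could not exclude heavy stored ribonucleoprotein in the latter, so a value in P is a sedimentation and not a direct measure of translation. The top fraction of the gradient entered neither dataset, and the study could not fully exclude that it held some stored ribonucleoprotein. Each dataset comprised 4 libraries, described in the study as 4 independent biological replicates. NP and P were pooled from fractions of the same gradients, so the libraries of the 2 datasets are not independent of each other. All oocytes came from mice aged 8 weeks, were collected 46 h after 5 IU of pregnant mare serum gonadotropin in 100 µM IBMX, which holds the oocyte in prophase, were stripped of their cumulus cells, and were cultured for 180 min without IBMX. All were then exposed to 0.1 mg/ml cycloheximide, which stalls ribosomes on mRNA, for 10 min, and 200 oocytes were lysed per gradient. Each library therefore averages many oocytes, and fewer oocytes carrying a transcript cannot be told apart from less transcript per oocyte. FPKM is a share within a library, so equal FPKM in NP and P does not mean equal numbers of molecules.

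RNA helicases of these families use ATP to open short RNA duplexes or to strip proteins from RNA. DEAD box enzymes typically pry apart a duplex locally without travelling along the strand, whereas DEAH box enzymes pull on a single strand and translocate along it. Members drive the rearrangements of the spliceosome, the assembly of both ribosomal subunits in the nucleolus, the export of mRNA through the nuclear pore and the scanning step of translation. A fully grown oocyte has stopped transcribing, so the transcripts measured here are maternal stores that can be recruited to, or held away from, ribosomes.

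The families are named after a short motif that binds and hydrolyses ATP, spelled DEAD or DEAH in amino acid letters. The motif was searched in frame, on the coding strand, in the longest complete coding sequence of each gene (GENCODE annotation, GRCm38 bases), behind a pair of mostly hydrophobic residues. It read DEAD in 26 members and DEAH in 9, with another codon at the third place in 15 and no such match in Dhx32. Among 21483 other protein-coding genes the same search found DEAD in 0.186% and DEAH in 0.121%. The match in Ddx26b, an older symbol for the Integrator-related gene Ints6l, lies in a gene that is not known as a helicase. The windows of 30 bases below are shown for the members that the comparison of NP and P turns on, with the 12 bases of the motif in capitals.
Ddx3x: ctggtgttaGATGAAGCTGACcggatgtta
Ddx56: ctggtggtaGATGAAGCTGACcttcttttt
Ddx31: ctgattgtgGATGAAGCAGACaggatcttg
Ddx10: ttagttcttGATGAGGCAGATagaatcttg
Ddx55: ctggtgctgGACGAGGCAGACagactgctc
Dhx35: atcatgctgGATGAAGCCCACgagaggacc
Ddx11: gtcattattGACGAGGCTCACaacctgatc
All 7 are coding sequence. The windows lie at chrX:13289399-13289428 (plus strand, exon 11 of Ddx3x), chr11:6266550-6266579 (minus, exon 4 of Ddx56), chr5:124558122-124558151 (plus, exon 6 of Ddx55), chr2:158818266-158818295 (plus, exon 7 of Dhx35) and chr17:66138165-66138194 (plus, exon 10 of Ddx11). Those of Ddx31 on chromosome 2 and Ddx10 on chromosome 9 each span an exon junction. Ddx11 carries a Ddx symbol with a DEAH box, and is known as a DNA helicase of sister chromatid cohesion.

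A second set of windows shows how alike the closely related members are.
Ddx19a: tttgttctgGACGAGGCTGATgtgatgata
Ddx19b: tttgttctgGACGAGGCTGATgtgatgata
Ddx39: tttgtgctaGATGAATGTGACaagatgctg
Ddx39b: tttattttgGACGAGTGTGACaagatgctt
Ddx21: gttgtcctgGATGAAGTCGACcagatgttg
Ddx50: gttgtgcttGATGAAGTAGATcaaatgtta
The windows of Ddx19a (chr8:110979077-110979106, minus strand) and Ddx19b (chr8:111011326-111011355, minus strand) were identical. Reads were longer than such a window, and whether any could not be assigned to a single neighbour was not tested. Ddx39 (chr8:83721101-83721130, plus strand) and Ddx39b (chr17:35247081-35247110, plus strand) both have TGT, a cysteine codon, at the third place. Ddx21 (chr10:62591872-62591901, minus strand) and its neighbour Ddx50 (chr10:62640502-62640531, minus strand) both have a valine codon there.

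The libraries differed in depth. The deposited values move in steps worth 1 read, and the read numbers that fit those steps were 1299377 to 7594637 for NP libraries and 2677946 to 4699328 for P libraries. With them, 82.3% to 85.1% of the values examined lay within 0.02 of a whole number of reads. The values examined were above 0, left out the highest, and came from genes whose start and end match the annotation. All 12 oocyte markers exceeded 1 FPKM in some library, with sums of 7539 to 14451 FPKM in NP and 9889 to 37036 FPKM in P. The 12 cumulus and granulosa markers summed to 15.3 to 94.4 FPKM in NP and 3.75 to 64.0 FPKM in P. Of these, 4 exceeded 1 FPKM in some library, the highest being Cyp19a1 with a mean of 24.8 FPKM over all libraries. Inhba, Foxl2, Has2 and Ptx3 among them were at 0 throughout. Of the leukocyte markers Ptprc and Cd3e were at 0, and Cd68 reached 35.9 FPKM in NP and was at 0 in P. Hba-a1 and Hba-a2, the red blood cell markers found in the table, were at 0. Whether the other cells' RNA had a part in the results below was not tested.

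Helicase transcripts were present in both datasets in amounts above the median gene tested. The median member had a mean of 9.69 FPKM in NP, against 5.75 for all 14292 genes tested, and 9.52 FPKM in P, against 3.99. Values above 0 in all 8 libraries were found for 37 of the 49 members (75.5%, against 50.4% of all genes tested). In NP, 7 members exceeded 100 FPKM, 17 lay between 10 and 100, 21 between 1 and 10, and 4 at or below 1. In P the corresponding counts were 6, 18, 20 and 5.

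**Figure D1:**
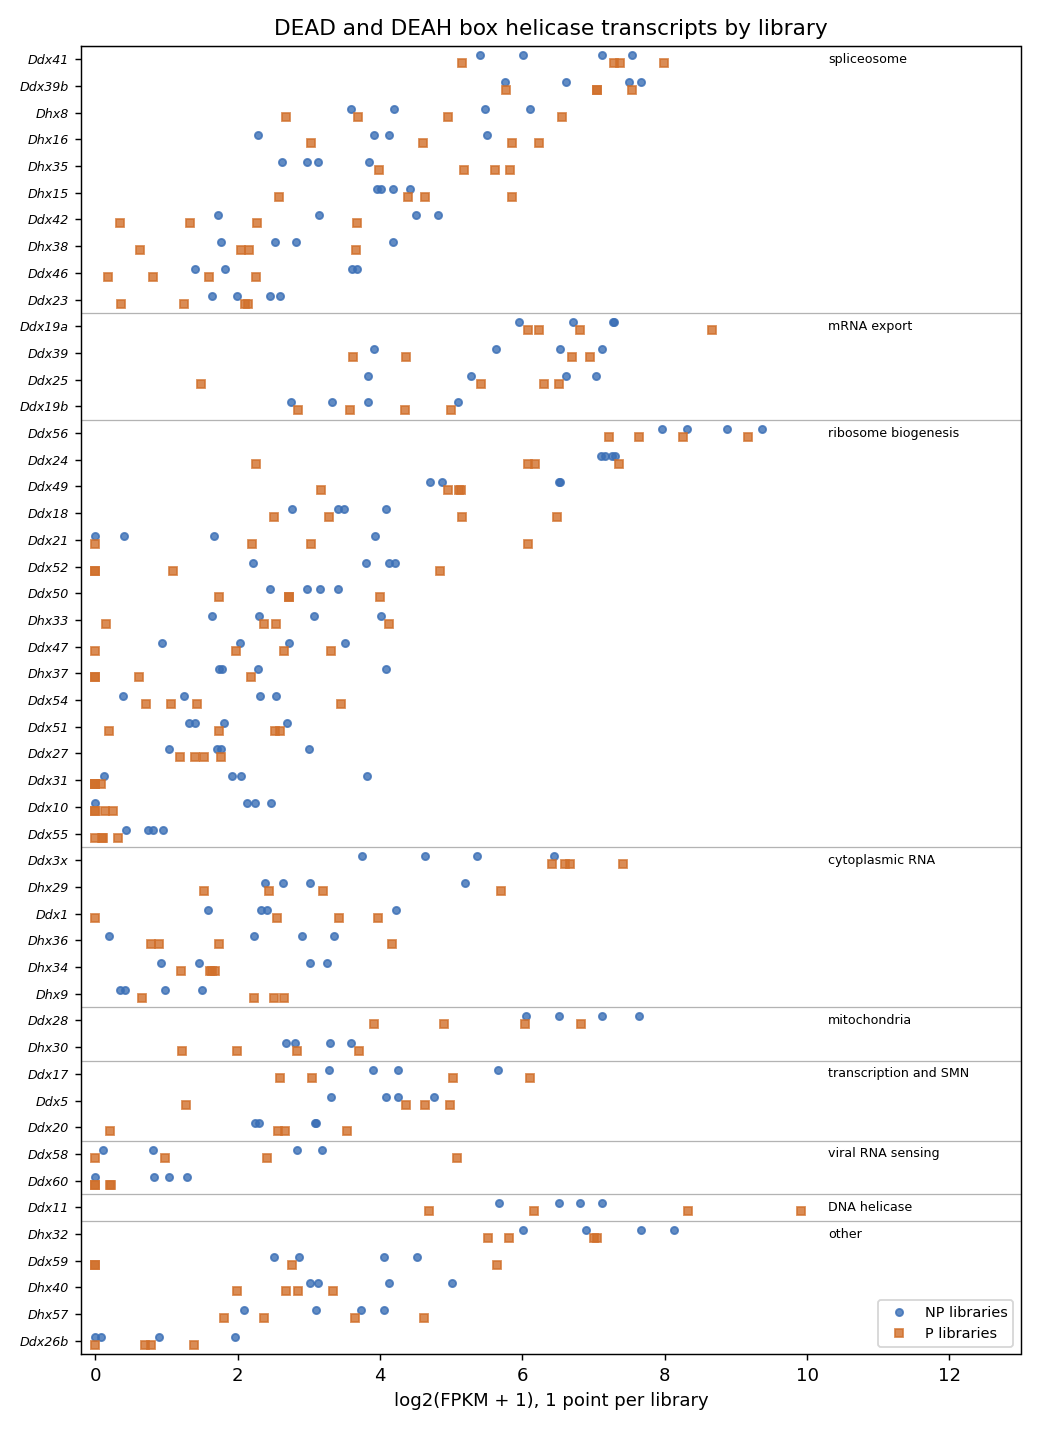
Level of each of the 49 members tested in every library, as log2(FPKM + 1), grouped by the role of the protein and ordered by mean level within a role (blue circles, NP libraries; orange squares, P libraries). The NP and P points of most members are interleaved, and Dhx35, Ddx31 and Ddx55 are the only members whose points do not overlap.

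No member passed the test between datasets. limma on log2(FPKM + 1), with Benjamini-Hochberg adjustment over all 14292 genes and a threshold of 0.1, called 0 of 49 members, and the smallest adjusted p of any member was 0.416. The same test called 0.021% of all genes, 3 in number and all higher in NP. At an unadjusted p below 0.05 there were 4 members (8.16%, against 9.95% of all genes tested), of which Dhx35 and Ddx3x were higher in P and Ddx31 and Ddx10 were higher in NP. Of all genes 0.476% lay past that limit towards P and 9.47% towards NP. The P and NP libraries did not overlap for 3 members (6.12%, against 6.28% of all genes), with Dhx35 higher in P (0.357% of all genes in that direction) and Ddx31 and Ddx55 higher in NP (5.92%). Counted over both directions, these shares lie near the background.

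In the main analysis, the fold changes of the members were centred close to those of all genes. Their median log2 fold change, P over NP, was -0.37, against -0.39 for all genes tested, and 13 members lay above 0 and 36 below (26.5% above 0, against 28.6%). The range ran from -2.11 for Ddx52 to 2.01 for Dhx35. By mean FPKM, 11 members were over 2-fold higher in NP (22.4%, against 40.6% of all genes) and 8 were over 2-fold higher in P (16.3%, against 16.9%). The 34 Ddx members and the 15 Dhx members tested had like medians, at -0.35 and -0.37. Fold changes here are of FPKM + 1, a scale that understates differences of low transcripts. With 0.1 added instead of 1, the medians were further apart, at -0.51 for the members and -0.83 for all genes. Among genes with a mean above 1 FPKM in NP or P they were -0.34 and -0.58.

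The direction of the whole table depended on how the libraries were scaled. Centring each library on its median moved the median of all genes from -0.39 to 0.57 and that of the members from -0.37 to 0.59, and quantile normalization moved them to -0.02 and 0.29. Among all genes with an unadjusted limma p below 0.05, 68 were higher in P and 1354 higher in NP as deposited, 364 and 578 after quantile normalization, and 2719 and 177 after centring. A member is therefore best read against the median of all genes.

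**Figure D2:**
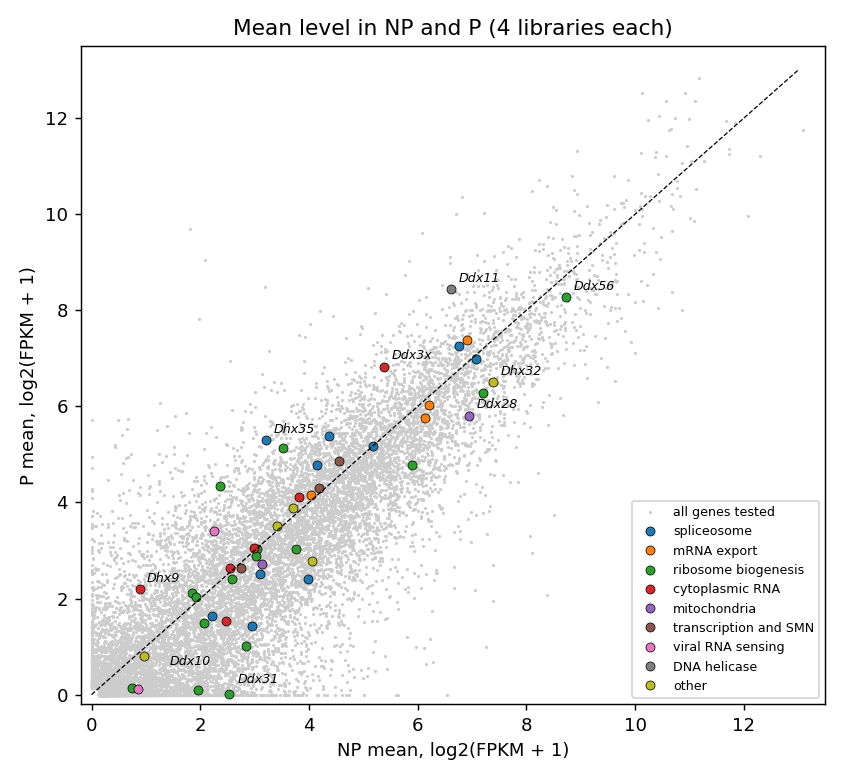
Mean of 4 NP libraries (horizontal axis) against mean of 4 P libraries (vertical axis), both as log2(FPKM + 1), for all genes tested (grey) and for the members coloured by role, with the line of equal values dashed. The members lie within the cloud of all genes, Ddx56 and Ddx11 at its upper end and Ddx31 and Ddx10 close to 0 in P.

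Spliceosomal helicases included the member with the highest log2 fold change of FPKM + 1, although by the ratio of mean FPKM Ddx21 was level with it, at 4.64. Dhx35, a DEAH box protein found in the catalytic spliceosome, measured 13.3, 7.74, 5.16 and 6.88 FPKM in NP1 to NP4 and 35.1, 14.8, 47.9 and 55.5 FPKM in P1 to P4. Every P library lay above every NP library, the closest being P2 and NP1. The means were 8.28 ± 3.54 and 38.3 ± 17.8 FPKM (SD, n = 4 each), a ratio of 4.63, with a log2 fold change of 2.01 (SE 0.69, limma adjusted p = 0.416). Its groups also stayed apart after quantile normalization and after centring, the only alternatives that could have made them overlap. Its unadjusted limma p was below 0.05 in each of the 14 alternative settings. The log2 fold changes were 1.78 to 2.39 when single libraries were left out and up to 2.96 after centring. The 8 values correspond to between 52 and 1102 reads.

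The other 9 spliceosomal members did not pass even the unadjusted limit. Ddx39b, which loads onto pre-mRNA early in splicing and also serves export, was the highest in NP, with 202, 179, 96.8 and 53.2 FPKM in NP and 186, 131, 132 and 53.7 FPKM in P. Its replicate 4 was the lowest library of both datasets, and its means of 133 ± 69.7 and 126 ± 54.3 FPKM differed by a log2 fold change of -0.03 (SE 0.62). Ddx41, a splicing factor also linked to nucleic acid sensing, measured 185, 138, 41.2 and 63.5 FPKM in NP and 156, 164, 34.6 and 253 FPKM in P. The NP range lay within the P range, and the log2 fold change of 0.43 (SE 0.72) was 0.06 without NP3. Of its exon bases 17.4% are shared with the opposite-strand gene Gm46416, so reads of the pair cannot be told apart without strand.

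The DEAH box enzymes that act in turn on the spliceosome had mean levels on either side of equality. Dhx16, which acts at activation of the catalytic centre, averaged 19.6 ± 17.2 FPKM in NP and 40.5 ± 30.7 FPKM in P. Dhx38, which acts before the second step, averaged 7.59 ± 6.54 and 4.69 ± 4.82 FPKM. Dhx8, which releases the spliced mRNA, averaged 35.0 ± 26.2 and 35.3 ± 40.2 FPKM. For Dhx15, which takes the spent spliceosome apart, the means were 16.8 ± 2.64 and 26.4 ± 21.9 FPKM, so that the P libraries were far more scattered than the NP libraries. Ddx42 and Ddx46, both of which work with the branch site complex, averaged 14.7 ± 11.6 and 6.78 ± 5.45 FPKM in NP against 4.33 ± 5.15 and 1.68 ± 1.61 FPKM in P. Ddx23, a component of the U5 particle, stood at 3.65 ± 1.34 and 2.09 ± 1.53 FPKM. Over the 10 spliceosomal members the median log2 fold change was -0.20, with 4 above 0.

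The 4 members of the mRNA export group had fold changes smaller than their standard errors. Ddx19a, a counterpart of the yeast enzyme that strips export factors from mRNA at the nuclear pore, measured 104, 60.9, 156 and 154 FPKM in NP and 66.9, 112, 406 and 74.0 FPKM in P. Its P mean of 165 ± 162 FPKM rested largely on P3, without which the log2 fold change of 0.14 (SE 0.66) was -0.43, and without NP2 it was -0.15. Ddx19b lay lower, at 13.3, 5.71, 33.3 and 9.003 FPKM in NP and 6.22, 31.0, 19.5 and 10.9 FPKM in P, with a log2 fold change of 0.19 (SE 0.78) that was -0.14 without NP2 and -0.16 without P2. Ddx39, a close relative of Ddx39b, measured 91.2, 138, 48.3 and 14.1 FPKM in NP and 123, 19.5, 11.3 and 102 FPKM in P. It was uneven within each dataset, and its log2 fold change of -0.39 (SE 0.89) was 0.05 without NP2 and 0.21 without P3. Its exons share 17.4% of their bases with the opposite-strand gene Adgre5, and reads of the pair cannot be told apart without strand. Ddx25, a helicase known from germ cells of the testis, averaged 69.4 ± 53.3 FPKM in NP and 52.9 ± 39.8 FPKM in P, where P4 was the lowest at 1.78 FPKM.

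**Figure D3:**
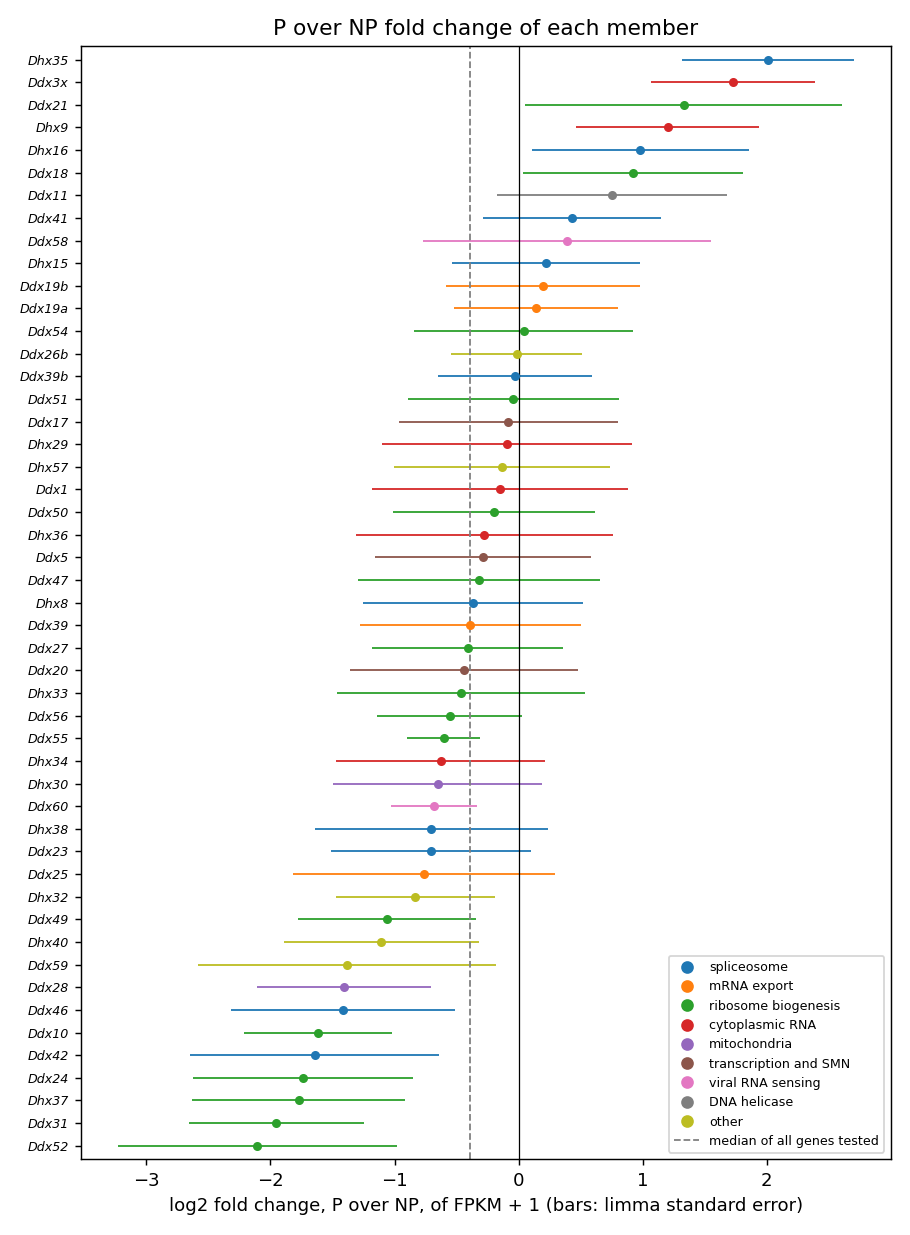
Log2 fold change of FPKM + 1, P over NP, of the 49 members (points, coloured by role; bars, limma standard error), with 0 as a solid line and the median of all genes tested, -0.39, as a dashed line. The members spread to both sides of the dashed line, from Ddx52 at -2.11 to Dhx35 at 2.01.

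Ribosome biogenesis was the largest group, with 16 members, 3 of them above 0 (18.75%, against 28.6% of all genes) and a median log2 fold change of -0.51, against -0.39 for all genes. At an unadjusted p below 0.05 there were 2 (12.5%, against 9.47% of all genes in that direction) and 2 had libraries that did not overlap (12.5%, against 5.92%), all higher in NP. Ddx56, a nucleolar helicase of large subunit assembly, was the highest of all members in NP, with 467, 661, 318 and 248 FPKM, and measured 199, 147, 578 and 306 FPKM in P. The ranges overlapped, and the means were 423 ± 183 and 307 ± 192 FPKM. Ddx24, which also acts in large subunit assembly, was even in NP, at 157, 142, 137 and 152 FPKM, and widely spread in P, at 66.4, 163, 71.6 and 3.79 FPKM. Its log2 fold change of -1.74 (SE 0.89) was -0.67 without P4 and -2.37 without P2.

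Ddx31, Ddx10 and Ddx55, all nucleolar, were found at low levels in NP and close to the limit of detection in P. Ddx31 measured 0.0886, 13.1, 3.11 and 2.79 FPKM in NP and 0.0602, 0, 0 and 0 FPKM in P. In reads these values were 1, 60, 80 and 75 against 1, 0, 0 and 0, so NP1 and P1 both held 1 read, and the order of that pair came from the scaling alone. Its log2 fold change was -1.95 (SE 0.70, limma adjusted p = 0.416).

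Ddx10 measured 3.72, 0, 3.39 and 4.54 FPKM in NP and 0.1895, 0.0926, 0 and 0 FPKM in P, or at least 40, 0, 83 and 116 reads against 3, 1, 0 and 0. NP2, the shallowest library, was at 0, so the groups overlapped. The log2 fold change was -1.62 (SE 0.60, limma adjusted p = 0.420), and -2.19 without NP2, an omission that parted the groups by construction. After centring, neither Ddx10, at -0.66, nor Ddx31, at -0.996, had an unadjusted limma p below 0.05, and after quantile normalization Ddx10, at -1.10, did not.

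Ddx55 stood at 0.673, 0.751, 0.349 and 0.926 FPKM in NP and 0.249, 0.0609, 0 and 0.0729 FPKM in P. Its groups did not overlap, but the measurements in P rest on at least 6, 1, 0 and 1 reads, and the log2 fold change of -0.60 (SE 0.30, limma adjusted p = 0.521) was 0.35 after centring and 0.02 after quantile normalization. The plot of the 5 members shows these 3 genes at or near 0 in the P libraries.

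**Figure D4:**
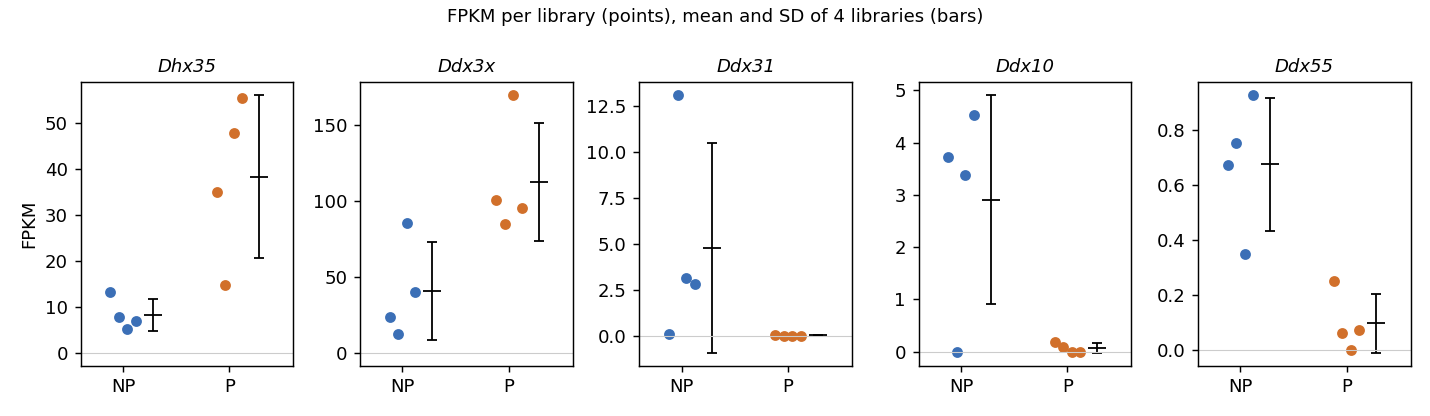
FPKM of Dhx35, Ddx3x, Ddx31, Ddx10 and Ddx55 in each of the 4 NP (blue) and 4 P (orange) libraries, each panel on its own linear scale, with mean and SD in black. Dhx35 and Ddx3x lie higher in P, with NP3 of Ddx3x at 85.8 FPKM reaching the P range, and the other 3 genes lie at or near 0 in P.

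Ddx21 and Ddx50 are related nucleolar helicases, the former also tied to transcription of ribosomal genes. Ddx21 measured 0, 0.325, 14.2 and 2.17 FPKM in NP and 3.59, 7.17, 66.6 and 0 FPKM in P, so that a library of each dataset was at 0 while P3 was the highest. Its log2 fold change of 1.33 (SE 1.27) was 0.25 without P3. Ddx50 was steadier, at 4.46, 7.92, 9.62 and 6.83 FPKM in NP and 14.99, 2.35, 5.61 and 5.62 FPKM in P, with a log2 fold change of -0.20 (SE 0.81) that was 0.15 without P2. The remaining 9 members of the group spanned a wide range. Ddx49, whose exons share 29.8% of their bases with the opposite-strand gene Homer3, averaged 58.8 ± 37.1 FPKM in NP and 26.4 ± 12.4 FPKM in P, and Ddx18 averaged 10.4 ± 4.20 and 34.2 ± 38.7 FPKM. Ddx52 was at 0 in P2 and P3 yet at 27.7 FPKM in P1, its highest library, and Dhx37 was at 0 in P1 and P4. Ddx27, Ddx47, Ddx51, Ddx54 and Dhx33 had means between 1.80 and 7.15 FPKM in both datasets.

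Helicases of cytoplasmic RNA included Ddx3x, which promotes scanning of structured mRNA leaders during translation initiation. It measured 23.9, 12.4, 85.8 and 40.3 FPKM in NP and 100.4, 84.7, 169.8 and 95.6 FPKM in P. NP3 reached just above P2, and otherwise the P libraries were higher. The means were 40.6 ± 32.3 and 113 ± 38.7 FPKM, a ratio of 2.77, with a log2 fold change of 1.73 (SE 0.66, limma adjusted p = 0.428). Without NP1, NP2 or P3 the unadjusted limma p was no longer below 0.05, at log2 fold changes of 1.59, 1.29 and 1.51. After centring, the Ddx3x and Dhx35 values gave the smallest adjusted limma p of any member in any setting, 0.108.

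Dhx9, a helicase of long duplexes and R-loops, lay much lower, at 0.848 ± 0.718 FPKM in NP and 3.56 ± 2.10 FPKM in P, with a log2 fold change of 1.2 (SE 0.74, limma adjusted p = 0.583). Only P4, at 0.566 FPKM, lay within the NP range. Leaving out P4 therefore parted its groups by construction (log2 fold change 1.66). They also did not overlap after quantile normalization (1.94) and after centring (2.16), each time with an unadjusted limma p below 0.05. Of all 14292 genes tested, 660 did not overlap with P higher after quantile normalization and 1724 after centring, against 51 as deposited. Dhx29, which helps the small subunit through structured leaders, averaged 13.1 ± 15.2 and 16.3 ± 23.1 FPKM, and Dhx36, which unwinds G-quadruplexes, 4.87 ± 3.87 and 5.20 ± 7.84 FPKM. The errors of both exceeded their means in P. Ddx1, part of the tRNA ligase complex, averaged 6.98 ± 7.18 and 7.31 ± 6.30 FPKM. Dhx34, a factor of nonsense-mediated decay, averaged 4.55 ± 3.81 and 1.91 ± 0.415 FPKM.

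Ddx5 and Ddx17, paired coregulators of transcription and splicing, had fold changes smaller than their standard errors. Ddx5 measured 18.0, 8.93, 25.95 and 15.9 FPKM in NP and 23.8, 19.6, 30.5 and 1.42 FPKM in P, where P4 stood alone, and its log2 fold change of -0.29 (SE 0.87) was 0.56 without P4. Ddx17 measured 18.1, 8.73, 49.3 and 13.97 FPKM in NP and 31.4, 7.27, 68.1 and 5.02 FPKM in P, and its log2 fold change of -0.08 (SE 0.88) was 0.38 without NP3, 0.30 without P2 and 0.45 without P4. Replicate 3 was the highest library of both genes in both datasets. Ddx20, a partner of the SMN protein in assembly of spliceosomal particles, averaged 5.69 ± 2.15 and 5.24 ± 4.25 FPKM.

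Helicases of mitochondrial RNA, Ddx28 and Dhx30, both act in assembly of the mitochondrial ribosome. Ddx28 measured 138, 198, 65.0 and 90.0 FPKM in NP and 112, 28.8, 14.1 and 64.5 FPKM in P. P1 alone lay within the range of NP, P4 being just under NP3, and the log2 fold change was -1.41 (SE 0.70, limma adjusted p = 0.523). Leaving out P1 parted the groups by construction, at a log2 fold change of -1.88. The gene lies within the span of Dus2 on the opposite strand, with which 3.18% of its exon bases are shared. Dhx30 averaged 7.81 ± 2.62 and 5.62 ± 4.72 FPKM.

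Ddx11 had the highest P mean of any member, at 346 ± 435 FPKM, against 97.3 ± 37.0 FPKM in NP. Its libraries measured 90.0, 111, 138 and 50.1 FPKM in NP and 322, 70.9, 968 and 24.8 FPKM in P. The P libraries thus lay on both sides of the NP range, and the log2 fold change of 0.75 (SE 0.93, limma adjusted p = 0.743) was -0.13 without P3. Dhx32, which lacks a recognisable box in this search and has little known of its function, measured 63.2, 118, 203 and 280.3 FPKM in NP and 55.0, 45.0, 131 and 127 FPKM in P. Both of its lowest P libraries lay under every NP library and the other P libraries within the NP range, with a log2 fold change of -0.83 (SE 0.64). Ddx59 averaged 12.1 ± 8.08 FPKM in NP and 13.7 ± 23.7 FPKM in P, where P3 was at 49.1 FPKM and P2 and P4 were at 0. Dhx40 and Dhx57 averaged between 5.92 and 15.6 FPKM in both datasets, and Ddx26b stayed under 1 FPKM in the mean of both.

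Sensors of viral RNA had mean levels at or below those of the median member. Ddx58, which encodes RIG-I, averaged 3.75 ± 3.95 FPKM in NP and 9.52 ± 15.6 FPKM in P, where P2 alone reached 32.8 FPKM. Ddx60 averaged 0.817 ± 0.610 and 0.0789 ± 0.0912 FPKM. The third gene, Dhx58, encoding the RIG-I relative LGP2, was listed at 0 throughout.

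Within a library, the ratio of related members is largely free of the scaling between libraries. Ddx19a exceeded Ddx19b in 8 of 8 libraries, by 1.81 to 4.31 on the log2 scale of FPKM + 1, with means of 3.06 ± 0.73 in NP and 3.00 ± 1.05 in P (difference -0.05, two-sided exact permutation p = 0.943). Ddx39b exceeded Ddx39 in 7 of 8 libraries, with a difference of the log2 ratio of -0.36 between P and NP (exact permutation p = 0.771). The Ddx5 to Ddx17 ratio differed by -0.20 (exact permutation p = 0.743). The ratio of Ddx21 to Ddx50 was the most variable, from -2.75 to 3.35, with a difference of 1.53 (exact permutation p = 0.343). Over the 4 pairs every Benjamini-Hochberg adjusted p was 0.943, and with 70 assignments the smallest p possible was 0.0286. These assignments did not take into account that NP and P libraries share gradients. The spread over 4 libraries is wide, so equal ratios in NP and P are not shown.

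**Figure D5:**
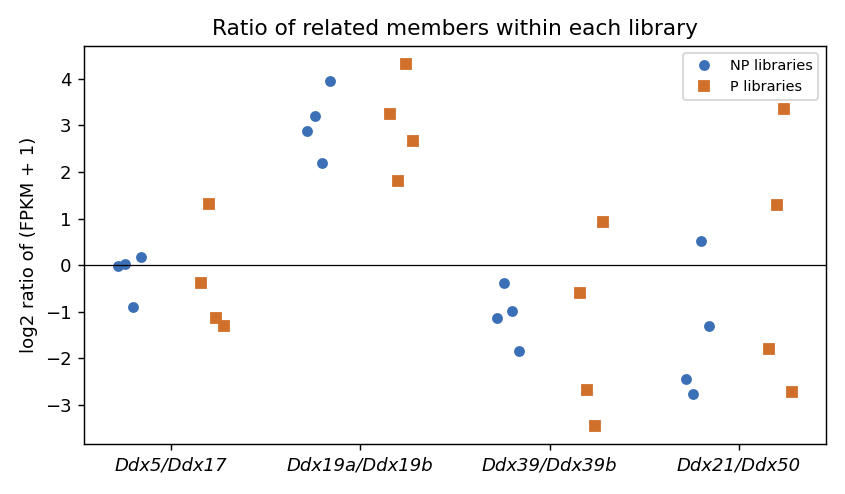
Log2 ratio of (FPKM + 1) of related members within each library, 1 point per library (blue circles, NP; orange squares, P), with equal levels at the line of 0. Ddx19a lies above Ddx19b in all 8 libraries, and the P points of Ddx39/Ddx39b and Ddx21/Ddx50 are spread over more than 4 units.

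The helicase transcripts were more scattered in P than in NP. The median SD over 4 libraries, on the log2 scale, was 0.95 in NP and 1.24 in P for the members, and 0.79 and 0.96 for all genes, and it was larger in P for 34 of 49 members (69.4%, against 57.9% of all genes). From 47 to 49 of the 49 members were above 0 in an NP library (48 ± 1.15, SD, n = 4), and 40 to 48 in a P library (44.25 ± 3.30). In P, 12 members were at 0 in at least 1 library. In NP it was 4, namely Ddx10, Ddx21, Ddx26b and Ddx60, which were also among the 12. P4, the shallowest P library, was the lowest of the 8 for 14 members (28.6%, against 18.3% of all genes), and P3 was the highest for 11 (22.4%, against 10.4%). The part of depth in these counts was not tested. The summed level of all members was 1481 to 2217 FPKM over the NP libraries and 1333 to 3183 FPKM over the P libraries.

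RNA helicases under other symbols, and genes that work with the members, were examined as lists. The first list held 23 RNA helicases, among them the Eif4a genes, that the symbol rule left out whatever their family. Of these, 19 were tested and 0 were called by limma. For 1 gene the unadjusted p was below 0.05 (5.26%, against 9.95% of all genes) and the libraries did not overlap (5.26%, against 6.28%). That gene was Aqr, a spliceosomal helicase, at 6.06 ± 1.88 FPKM in NP and 1.13 ± 0.742 FPKM in P (log2 fold change -1.74, SE 0.78, limma adjusted p = 0.493). Eif4a2 averaged 23.2 ± 4.56 FPKM in NP and 61.3 ± 31.7 FPKM in P, and Eif4a1 93.8 ± 24.6 and 173.6 ± 83.5 FPKM. Both lay higher in P in the mean with overlapping libraries. Eif4a3, more abundant than either, lay lower in P in the mean, at 283 ± 141 FPKM in NP and 258 ± 206 FPKM in P (log2 fold change -0.32, SE 0.66). The list's median log2 fold change was -0.28.

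Of 26 cofactors of DEAD box helicases tested, 6 lay above 0 (23.1%, against 28.6% of all genes). limma called 0 of them, 3 had libraries that did not overlap, all higher in NP (11.5%, against 5.92% of all genes in that direction), and 5 had an unadjusted p below 0.05, all higher in NP (19.2%, against 9.47% of all genes in that direction), with a median log2 fold change of -0.82. Gemin8, a subunit of the SMN complex in which Ddx20 also sits, measured 100.0, 12.997, 34.1 and 18.2 FPKM in NP and 1.54, 5.52, 0.181 and 0.601 FPKM in P. Its groups did not overlap, and its log2 fold change of -3.72 (SE 0.90, limma adjusted p = 0.344) was the lowest of the list. Gemin7, of the same complex, averaged 114 ± 64.5 FPKM in NP and 30.8 ± 15.4 FPKM in P, again without overlap. The gene 2700060E02Rik, also called Rtraf and coding for a partner of Ddx1 in the tRNA ligase complex, was the third without overlap and averaged 139 ± 53.5 and 54.97 ± 16.9 FPKM. Thoc7, of the export complex that recruits Ddx39b, and Fam98a, of the same complex as Ddx1, completed the 5. Of 16 tested cofactors of DEAH box helicases, 0 were called and 0 had an unadjusted p below 0.05 (against 9.95% of all genes), with a median of -0.44. Gpatch8 alone had libraries that did not overlap (6.25% of the list, against 6.28% of all genes), at 4.53 ± 2.61 FPKM in NP and 0.966 ± 0.626 FPKM in P. Whether the lists differed from each other was not tested.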

How the data were processed

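RNA from pooled gradient fractions underwent ribosomal RNA removal, priming with random and oligo-dT primers, and amplification of the cDNA, steps that can add scatter to low transcripts. Per the labels and methods, the authors trimmed reads with Trim Galore 0.4.1, checked them with FastQC 0.11.5, used HISAT2 2.0.5 for alignment on GRCm38, and computed FPKM per gene in Seqmonk. The deposited FPKM values were used as given. The authors' DESeq2 fold changes and p-values, and their dataset means and ratios, were not used. Because per-library values are FPKM and not counts, limma 3.58.1 (R 4.3.3, trended eBayes) was run on log2(FPKM + 1). The 14292 genes tested had a mean above 0.1 FPKM in NP or P, and Benjamini-Hochberg adjustment covered all of them, at a threshold of 0.1. The script was tested on simulated data. Reads per value were recovered from the FPKM steps, with annotated exon lengths for 22 members and the shortest fitting length, hence a minimum, for 27. A length fitted where every value above 0 lay within 0.02, plus a relative 2e-06, of a whole number of reads. Named with every library were members with an unadjusted p below 0.05 or no overlap, the 5 highest in each dataset, and 4 related pairs, 19 in all. Related pairs were compared by exact permutation over 70 assignments, which, like the main limma fit, left out that NP and P share gradients. Alternatives were a pseudocount of 0.1, no filter, a mean above 1 FPKM, quantile normalization, median centring, a replicate block and leaving out each library. Coordinates and bases come from GRCm38 with GENCODE vM21 annotation. The study made its libraries from the amplified cDNA with a Nextera DNA kit and describes no step that keeps the strand of the RNA. Whether counting used strand is not stated. The members and lists were chosen with earlier results of these data known, and p-values measure the spread between these libraries.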

Additional observations from a re-analysis of the deposited data

Results flagged for a closer look

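Single libraries stood apart by Dixon's criterion in 3 of 38 groups of 4 values examined (19 members, 2 datasets), a criterion that chance meets in about 1 in 20 groups. Ddx10 was at 0 FPKM in NP2, against 3.39 to 4.54 FPKM in the other NP libraries, and NP2 was the shallowest library. Ddx31 was at 0.0602 FPKM in P1, a single read, against 0 in the other P libraries, so the criterion was met by construction and any value above 0 would have met it. Ddx5 was at 1.42 FPKM in P4, against 19.6 to 30.5 FPKM in the other P libraries, and P4 was the shallowest P library. The part of depth in these values was not tested.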

How the results depend on the processing

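No member was called by limma at an adjusted p of 0.1 in the main analysis or in any of the 14 alternatives, the smallest adjusted p being 0.108. Leaving out single libraries gave 0 called members throughout and medians of -0.55 to -0.17. At an unadjusted limma p below 0.05 there were 3 to 6 members (6.12% to 12.2%, against 7.76% to 11.3% of all genes). Members with libraries that did not overlap numbered 3 to 6, the 6 of 49 being without P1. In that fit, 105 of 14155 genes tested did not overlap with P higher, and 1607 with NP higher. The median log2 fold change of -0.37 became 0.29 after quantile normalization and 0.59 after median centring. Of the 19 named members, 8 kept their direction in every alternative that gave a value and 11 did not. After quantile normalization the log2 fold change was 0.40 for Ddx17, 0.22 for Ddx39b, 0.29 for Ddx5, 0.56 for Ddx50 and 0.022 for Ddx55. After median centring it was 0.88 for Ddx17, 0.57 for Ddx39, 0.93 for Ddx39b, 0.67 for Ddx5, 0.76 for Ddx50, 0.35 for Ddx55, 0.40 for Ddx56 and 0.13 for Dhx32. Without single libraries it ran from -0.13 to 1.61 for Ddx11, -0.72 to 0.45 for Ddx17, -0.43 to 0.43 for Ddx19a, -0.16 to 0.64 for Ddx19b, -1.02 to 0.21 for Ddx39, -0.40 to 0.33 for Ddx39b, -0.68 to 0.56 for Ddx5 and -0.60 to 0.15 for Ddx50. Centring moves the log2 fold change of every gene by the same amount, so the changes of direction there follow from the scaling. The cause of the other changes was not tested. Ddx55 gave no value where a mean above 1 FPKM was required.

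By the study's account NP and P were pooled from the same gradients, but the sources do not say that a replicate number marks the same gradient. The main fit therefore left the pairing out. Deviations of same-numbered NP and P libraries correlated at 0.139, 0.0518, 0.251 and 0.155 over 11374 genes, other numbers at -0.135 to 0.136, and NP2 correlated best with P1. With a replicate block, limma called 0 members, 6 had an unadjusted p below 0.05 (12.2%, against 12.1% of all genes in that fit, and 4 without the block), 3 had libraries without overlap, the median was -0.37, and no call changed. At these depths, 1 read on 1 kb was worth 0.132 to 0.770 FPKM in NP and 0.213 to 0.373 FPKM in P, so levels under about 1 FPKM rest on few reads.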
